A study of Mus musculus with 8 samples.

Results

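A set of 10 genes of the mesenchymal state and of epithelial-mesenchymal transition (EMT) were examined in mouse bone marrow cells and in hepatocytes that arose from them after transplantation. They were the structural and matrix genes Vim, S100a4 and Fn1, the transcription factors Snai1, Snai2, Twist1, Zeb1, Zeb2 and Tcf4, and the inducing ligand Tgfb1. All 10 were found by gene name on both of the array designs used. After a filter on dim probes, 28538 genes were tested on one slide and 19934 on the other. Of the 10, 8 passed the filter on dim probes on each slide, and Snai1 and Twist1 did not.

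Expression was measured on 1-colour Agilent arrays with 2 arrays per group, described in the study as 2 experiments, each of pooled cells of 3 mice. Lin- BM cells (arrays L3 and L4) are bone marrow cells left after removal of mature blood cells with antibodies to lineage antigens; they came from female eGFP mice of the strain C57Bl6/J-Tg(UBCGFP)30Scha/J, aged 6 to 8 weeks, in which the ubiquitin C promoter drives the marker broadly. BM-derived hepatocytes were sorted by eGFP after such cells had been given to male hemophilia A mice, B6;129S4-F8tm1Kaz/J, aged 6 to 8 weeks, whose livers had been injured with acetaminophen, with arrays B1 and B2 at 1 month and arrays G1 and G3 at 5 months. Primary hepatocytes (H2 and H4) were measured as well, and the strain and age of their mice are not given in the sources used here. A sort on eGFP takes any donor cell that sediments with hepatocytes, including hybrids of donor and host cells.

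EMT is the process by which epithelial cells lose their junctions and take up a motile, matrix-producing state, and the reverse process restores epithelial features. Factors of the Snail, Zeb and basic helix-loop-helix families repress epithelial genes by binding E-box motifs, and TGF-beta signalling through Smad proteins induces several of them. Blood cells also carry high levels of vimentin and S100a4, and hepatocytes secrete the plasma form of fibronectin, so the genes of this set have known roles outside EMT.

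Levels are given as the log2 of the background-subtracted signal relative to the upper quartile of the array, so that 0 is the 75th percentile. A difference was called at an adjusted p under 0.05 in limma with a log2 difference beyond 0.6 in size. The share of spots well above background lay between 47.7% and 58.6%, 0 spots were saturated, and the upper quartile signal was 75.5 and 89.5 at 1 month against 122 to 193 on the other arrays. One slide carried the arrays L3, L4, B1 and B2, and a slide of another design, scanned separately, carried H2, H4, G1 and G3. Across slides, only probes of identical sequence were compared, and slide, design and scan cannot be told apart from group. In bulk samples, fewer cells of a type and less RNA per cell cannot be told apart. The labels do not tell how the experiments were separated, and p-values measure only the spread between these arrays.

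The labelled cell types were checked by their markers. Albumin (Alb) was not well above background on either array of Lin- BM cells. Its mean log2 level at 1 month was 9.88 ± 0.10 (SD, n = 2), which was at least 21200-fold higher. The adjusted p in limma, 6.16e-05, is that of the measured log2 difference and not of this bound. The leukocyte antigen Ptprc (CD45) had a mean log2 level of 5.57 in Lin- BM cells and fell by 7.40 on the log2 scale at 1 month (SE 0.83, adjusted p = 0.00247), although it was still well above background on both 1-month arrays. All 8 hepatocyte markers were called higher and all 8 pan-leukocyte markers lower at 1 month than in Lin- BM cells. Over all genes tested, 28.8% were called higher and 26.5% lower.

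From Lin- BM cells to 1-month hepatocytes, the set did not move as a block. Of the 8 members tested, 5 were called lower, where 26.5% of all genes tested were called lower, and 2 were called higher, where 28.8% of all genes were. The median log2 difference of the 8 members was -2.91, beside 0.07 over all genes tested. S100a4, Vim, Tgfb1, Zeb2 and Tcf4 fell, Fn1 and Snai2 rose, and Zeb1 did not pass the test.

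**Figure D1:**
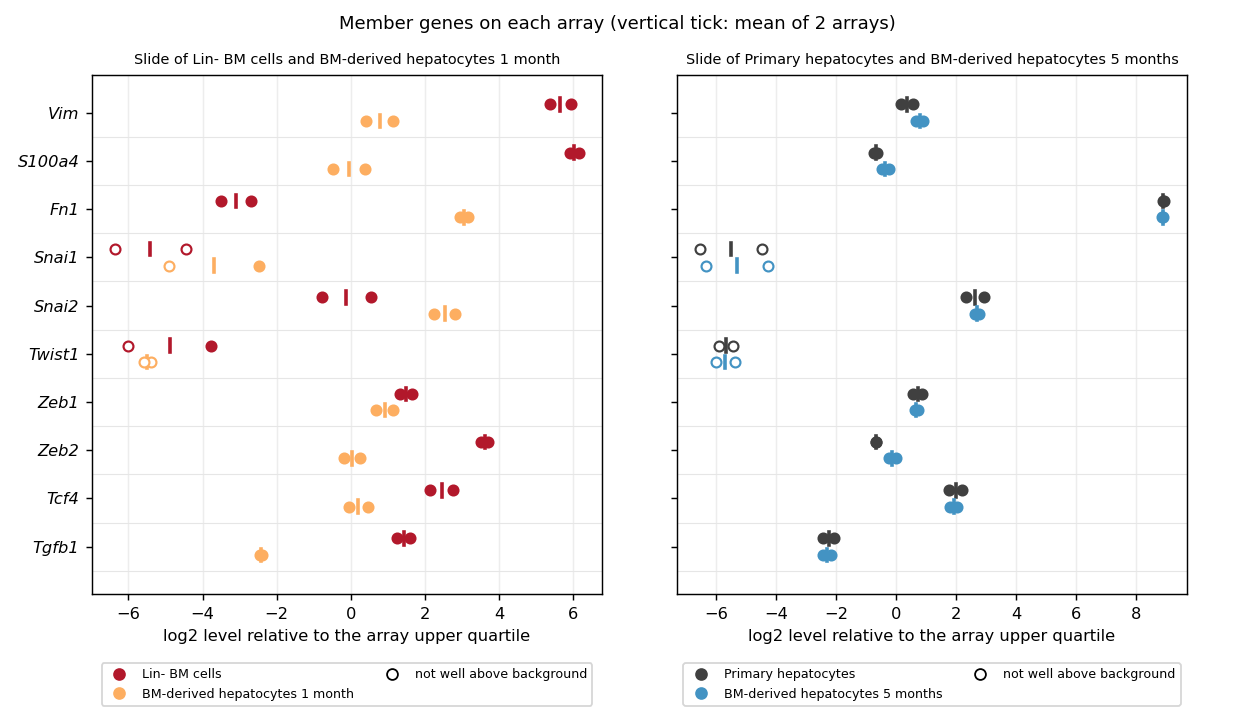
Log2 level (x axis, relative to the array upper quartile) of each member's brightest probe on every array, with Lin- BM cells and 1-month hepatocytes on the left and primary and 5-month hepatocytes on the right; open circles were not well above background and ticks are means of 2 arrays. On the left, Vim and S100a4 lie above 5 in Lin- BM cells and below 2 at 1 month, and Fn1 lies on the opposite sides, near -3 and 3.

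Among the structural and matrix genes, S100a4, a calcium-binding protein also called fibroblast-specific protein, had the largest fall. Its log2 levels were 6.14 and 5.90 in Lin- BM cells and -0.47 and 0.37 at 1 month. Both Lin- BM arrays were far above both 1-month arrays. The log2 difference was -6.07 (SE 0.38), a 67.2-fold lower signal (limma, adjusted p = 5.12e-04).

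Vim encodes vimentin, the intermediate filament of mesenchymal cells and of leukocytes. Its log2 levels were 5.94 and 5.37 in Lin- BM cells and 0.41 and 1.15 at 1 month. The groups did not overlap, and the signal at 1 month, although lower, was well above background on both arrays and near the upper quartile of all probes. The log2 difference was -4.88 (SE 0.39), a 29.4-fold lower signal (limma, adjusted p = 0.00100). The call was lost with the methods' t-test after adjustment (adjusted p = 0.052).

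Fn1 encodes fibronectin, a matrix glycoprotein counted among mesenchymal markers. The brightest of its 3 probes on this slide, printed in 8 spots, gave -3.49 and -2.70 in Lin- BM cells and 3.16 and 2.93 at 1 month. The direction was opposite to that of Vim and S100a4. The log2 difference was 6.15 (SE 0.36), a 70.9-fold higher signal (limma, adjusted p = 4.45e-04). On L3 and L4 the other 2 probes were not well above background, and on both 1-month arrays they were, at least 9.56-fold and 8.39-fold higher. The fold depended on the background correction, at 15.6 with normexp, and was 44.1 over the mean of the 3 probes.

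The promoters of Vim, S100a4 and Tgfb1, which fell, and of Snai1, which was near background, are shown so that their motifs can be compared. They are the 250 bases before the start site in RefSeq, build GRCm38.p6, all on the plus strand, with motifs in capitals. Of the 10 members, entries were taken for Vim, S100a4, Tgfb1, Snai1, Twist1 and Zeb2. Promoters of the other members were not examined.
Vim, chr2:13574061-13574310: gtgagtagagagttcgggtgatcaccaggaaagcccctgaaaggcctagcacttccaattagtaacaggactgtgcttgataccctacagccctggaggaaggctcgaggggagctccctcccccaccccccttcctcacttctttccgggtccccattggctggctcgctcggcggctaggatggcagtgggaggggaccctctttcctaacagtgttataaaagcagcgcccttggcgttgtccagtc
S100a4, chr3:90603520-90603769: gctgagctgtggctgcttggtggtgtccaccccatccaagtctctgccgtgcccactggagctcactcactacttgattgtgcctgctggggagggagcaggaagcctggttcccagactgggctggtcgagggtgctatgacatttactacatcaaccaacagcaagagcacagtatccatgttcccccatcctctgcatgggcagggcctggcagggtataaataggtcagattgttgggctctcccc
Tgfb1, chr7:25686752-25687001: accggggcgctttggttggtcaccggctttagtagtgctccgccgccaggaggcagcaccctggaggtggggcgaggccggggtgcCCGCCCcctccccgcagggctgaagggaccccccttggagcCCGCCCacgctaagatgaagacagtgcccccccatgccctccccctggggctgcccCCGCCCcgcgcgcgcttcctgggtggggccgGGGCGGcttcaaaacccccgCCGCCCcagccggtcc
Snai1, chr2:167537945-167538194: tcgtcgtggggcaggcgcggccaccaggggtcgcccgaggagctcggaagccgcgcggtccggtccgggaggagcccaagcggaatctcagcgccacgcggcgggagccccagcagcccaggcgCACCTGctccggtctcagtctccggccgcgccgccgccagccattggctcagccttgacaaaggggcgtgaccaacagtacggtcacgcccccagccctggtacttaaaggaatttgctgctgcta
The motifs searched on both strands were CAGGTG, the E-box bound by Snail and Zeb factors, GGGCGG, the GC box bound by Sp1, and TGACTCA, the AP-1 site, none of which overlap here. CAGGTG or its reverse complement was held by 17.2% of 32851 promoters of this length, GGGCGG by 32.7% and TGACTCA by 4.46%. The E-box was found once in the Snai1 promoter and in none of the 3 others printed, the GC box 5 times in that of Tgfb1, and none of the 3 motifs in those of Vim and S100a4. Zeb2, which also fell, had 4 entries that are not printed, of which 3 held the GC box once, 1 of these also the AP-1 site 2 times, and 0 the E-box. The G and C content was 58.4% for Vim, 57.2% for S100a4, 75.2% for Tgfb1 and 70.0% for Snai1, beside a median of 52.4% over all promoters. A match describes letters only.

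Among the transcription factors, Snai2 (Slug), a zinc finger repressor of the Snail family, rose. Its log2 levels were -0.78 and 0.54 in Lin- BM cells and 2.25 and 2.81 at 1 month. The Lin- BM arrays differed from each other by more than the 1-month arrays did, and both lay below them. The log2 difference was 2.65 (SE 0.52), a 6.29-fold higher signal (limma, adjusted p = 0.0121). Without 1-month array B2 the log2 difference was 2.37 and the call was lost (adjusted p = 0.0658), and it was also lost with the methods' t-test. The signal was 3.99-fold higher without L3, 9.91-fold without L4 and 3.93-fold with normexp. Over 11 other settings the adjusted p lay between 0.00205 and 0.125.

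Zeb2, a zinc finger homeobox factor that represses E-cadherin and is also used by myeloid cells, fell. Its brightest probe gave log2 levels of 3.51 and 3.70 in Lin- BM cells and -0.19 and 0.26 at 1 month. The difference of -3.57 (SE 0.29), an 11.9-fold lower signal, was far beyond the spread of either group (limma, adjusted p = 0.00108). Of its 2 other probes, one had a log2 difference of -4.34, and the other was not well above background at 1 month and was at least 3.01-fold lower.

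Tcf4 (E2-2) is a basic helix-loop-helix factor known for plasmacytoid dendritic cells as well as EMT. Its log2 levels were 2.13 and 2.77 in Lin- BM cells and 0.46 and -0.06 at 1 month. The 2 pairs of arrays were separate, with a log2 difference of -2.25 (SE 0.36) and a 4.75-fold lower signal (limma, adjusted p = 0.00686). The call was lost with the methods' t-test after adjustment (adjusted p = 0.0837), and the mean of its probes gave a 2.69-fold lower signal. The second Tcf4 probe was dim, at -3.77 and -4.18 in Lin- BM cells and not well above background at 1 month, and it did not pass the test (adjusted p = 0.223 in a fit over every probe).

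Zeb1, the close relative of Zeb2, had log2 levels of 1.65 and 1.33 in Lin- BM cells and 0.68 and 1.15 at 1 month. The 1-month arrays were the lower pair, with a gap smaller than the spread within that pair. The log2 difference was -0.57 (SE 0.31, adjusted p = 0.173 in limma, 95% interval -1.38 to 0.23), so Zeb1 was not called, although with normexp it was (-0.69, adjusted p = 0.0484).

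Snai1 (Snail) and Twist1, regulators held to start EMT, were close to the limit of detection. Snai1 was well above background on 1 of the 8 arrays, 1-month array B1 at a log2 level of -2.48, against -4.89 on B2. Twist1 was well above background on 1 of the 8 arrays, Lin- BM array L4 at -3.78, against -6.00 on L3. Neither was tested, and differences between groups were not detectable at this signal.

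Tgfb1 encodes the secreted ligand TGF-beta 1, made by many blood cells. Its log2 levels were 1.25 and 1.59 in Lin- BM cells and -2.45 and -2.39 at 1 month. The arrays within each group lay close together. The log2 difference was -3.84 (SE 0.27), a 14.3-fold lower signal (limma, adjusted p = 7.33e-04), and 4.01-fold with normexp.

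Genes of other cell types moved between the same arrays, where 28.8% of all genes tested were called higher and 26.5% lower. The summed signal of the pan-leukocyte list, over the upper quartile, was 465 and 278 in Lin- BM cells and 10.2 and 13.6 at 1 month, and that of haematopoietic progenitors was 611 and 548 against 3.64 and 6.21. Sinusoidal endothelium markers stood at 1.66 and 1.77 in Lin- BM cells and 78.5 and 95.8 at 1 month, with 7 of 8 called higher. Kupffer cell markers stood at 1.09 and 3.95 against 9.36 and 40.5, with 4 of 7 called higher. Plasmacytoid dendritic cell markers stood at 73.8 and 129 against 54.7 and 53.7, with 4 of 6 called lower and Siglech not above background at 1 month. The stellate cell and fibroblast list stood at 23.0 and 174 against 27.8 and 37.1, with 3 called higher and 2 lower of 8 tested and Des and Col1a1 not above background at 1 month. Marrow stroma markers stood at 16.7 and 37.3 in Lin- BM cells against 64.1 and 59.6, with 2 of 6 called higher and 2 lower. Although this sum rose, their median log2 difference was -2.13, or -1.71 with genes not above background at their bound. Lepr, Ebf3 and Adipoq were not above background at 1 month. Neutrophil and monocyte markers stood at 741 and 176 against 5.04 and 17.6. Cholangiocyte markers summed to 19.4 and 24.4 against 2.16 and 0.499, although Krt19 and Krt7 were not above background on any of these arrays. In these sums the brightest Sox9 probe was not above background on L3, L4 or B2. Of the 2 of 5 markers tested, Sox9 was called higher, by another probe, and Spp1 lower. At 1 month the pan-leukocyte markers were well above background for 6 of 8 on B1 and 8 of 8 on B2. The part of these cells in the member genes' values was not tested.

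**Figure D2:**
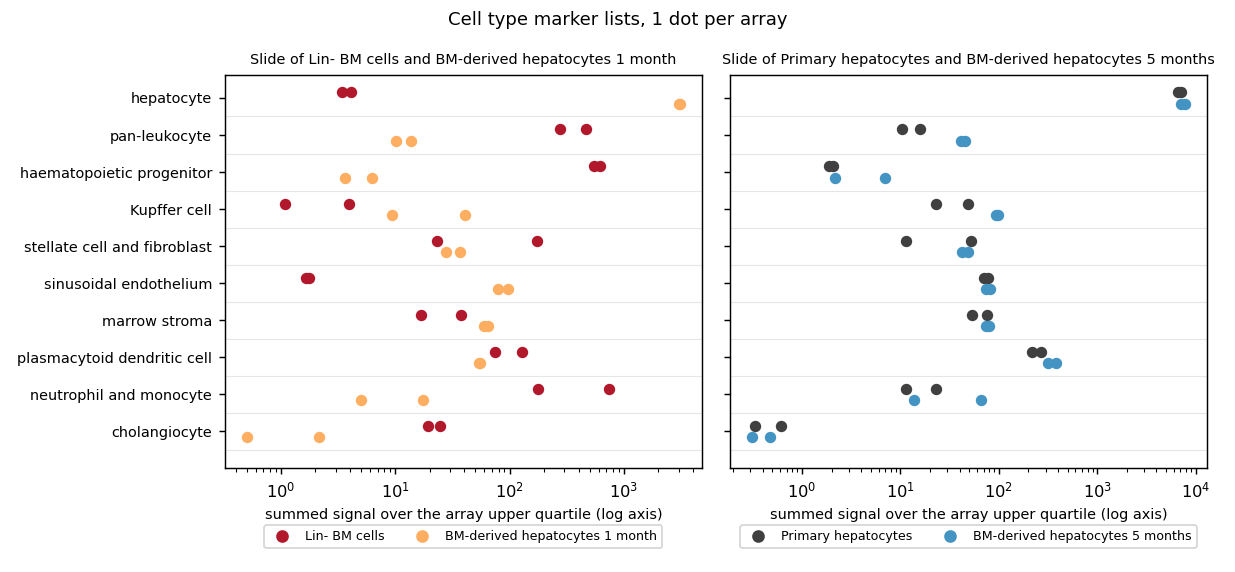
Summed signal of each cell type marker list over the array upper quartile (log x axis), 1 dot per array, with each slide in its own panel. Pan-leukocyte markers drop from 278 or more in Lin- BM cells to 13.6 or less at 1 month, and on the other slide they stand at 10.4 and 15.9 in primary and 45.8 and 41.3 in 5-month hepatocytes.

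The genes around the members in the same pathways were counted on the same slide. For these and the following lists, the shares over all genes tested were 28.8% called higher and 26.5% called lower. Genes well above background on both arrays of only 1 group passed the filter through that group, which fixed or favoured their direction. Of the 8 genes tested among TGF-beta ligands, receptors and activators, 4 were called lower and 1 higher, with a median log2 difference of -0.92, or -0.76 with Thbs1 at its bound. Nrros, which presents latent TGF-beta on myeloid cells, fell by 4.30 on the log2 scale (SE 0.32, adjusted p = 8.16e-04), and the latent TGF-beta binding protein Ltbp3 fell by 4.01 (SE 0.32, adjusted p = 9.91e-04). The activator Thbs1, at a mean of -2.32 in Lin- BM cells, was not well above background at 1 month and was at least 2.30-fold lower. The receptor Tgfbr2 fell by 1.53 and Lrrc32, another carrier of latent TGF-beta, rose by 2.36; these 2 were named after their values were seen.

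Of 11 Smads and Smad inhibitors, all tested, 1 was called higher and 0 lower. Smad6, an inhibitor of bone morphogenetic protein signalling, had a log2 difference of 2.39 (SE 0.30, adjusted p = 0.00342). Of 8 TGF-beta targets tested, 2 were called higher, Id3 (log2 difference 2.85) and Id2 (2.43), and 2 lower, Ltbp2 (-2.55) and Pmepa1, which was not well above background at 1 month and was at least 1.96-fold lower (named after its value was seen). Both counts were near the shares over all genes, and the median was 0.10, close to that of all genes.

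Of 7 other EMT and E-box factors tested, 5 were called lower and 1 higher. Runx2, an osteogenic factor, had a log2 difference of -7.51 (SE 0.30, adjusted p = 1.69e-04) and Sox4 one of -5.80 (SE 0.70, adjusted p = 0.00302), each well above background on 1 of 2 arrays at 1 month. Sox9, a factor of bile duct and progenitor cells, was at least 4.43-fold higher at 1 month, since both Lin- BM arrays left it not well above background, or 2.81-fold without B1 and 6.96-fold without B2. Of the 13 partner genes of S100a4 and Vim, 12 were tested, 8 were called lower and 1 higher. S100a6, a close relative of S100a4, fell by 6.06 on the log2 scale and S100a9 had a log2 difference of -7.49, while S100a8, at a mean of 4.46 ± 2.57 (SD, n = 2) in Lin- BM cells, was at least 252-fold lower, or 71.5-fold without L3 and 889-fold without L4. S100a8 and S100a9 are abundant in neutrophils. The partner that rose was Nes (nestin, 2.54), named after its value was seen.

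Among 20 genes of mesenchymal adhesion, matrix and cytoskeleton, all tested, 9 were called lower and 2 higher, with a median of -1.09, or -0.83 with 4 genes not above background at their bound. Of the 9, Col1a1, Mmp2, Tnc and Lox were not well above background at 1 month, and Thy1, Cd44 and Msn only on 1 array. These passed the filter only through Lin- BM cells, which fixed or favoured their direction, so the count of 9 is no separate result. Cdh2 in turn passed only through the 1-month arrays. Col1a1, the main chain of type I collagen, was not well above background at 1 month and was at least 361-fold lower, from a mean of 4.97 ± 3.08 (SD, n = 2) in Lin- BM cells, or 1630-fold without L3 and 80.0-fold without L4. The surface antigens Thy1 and Cd44 had log2 differences of -9.02 and -7.36, each well above background on 1 of 2 arrays at 1 month. Cdh2, or N-cadherin, which hepatocytes carry beside E-cadherin, went the other way, from a mean of -3.86 in Lin- BM cells, well above background on 1 of 2 arrays, to 1.77 at 1 month (log2 difference 5.63, SE 0.73, adjusted p = 0.00364). The other gene that rose was Tagln (1.86), named after its value was seen.

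Most of the epithelial counterparts tested rose. Of 20 genes, 15 were tested and 14 were called higher, 0 lower, with a median log2 difference of 6.71, or 5.64 with genes not above background at their bound. Ocln, Cldn1, Cldn2, Dsp and Jup were not well above background on either Lin- BM array, and Pkp2 and Crb3 only on 1. These genes passed the filter only through the 1-month arrays, so it fixed or favoured their direction. Their calls add no support to the count. Epcam, Krt19, Esrp1, Ovol1 and Grhl2 did not pass the filter on dim probes. The keratin Krt8 rose by 10.62 on the log2 scale (SE 0.34, adjusted p = 9.44e-05), the tight junction gene Cldn3 rose by 9.13, and Cldn2 was at least 80.7-fold higher. Cdh1, or E-cadherin, was the tested gene not called, with mean log2 levels of 0.80 in Lin- BM cells and 1.97 ± 0.89 (SD, n = 2) at 1 month (difference 1.17, SE 0.51, adjusted p = 0.110). Against Lin- BM cells on a shared probe, Cdh1 was called higher at 5 months (3.03, SE 0.57, adjusted p = 0.00322) and in primary hepatocytes (2.45, SE 0.57, adjusted p = 0.00805).

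**Figure D3:**
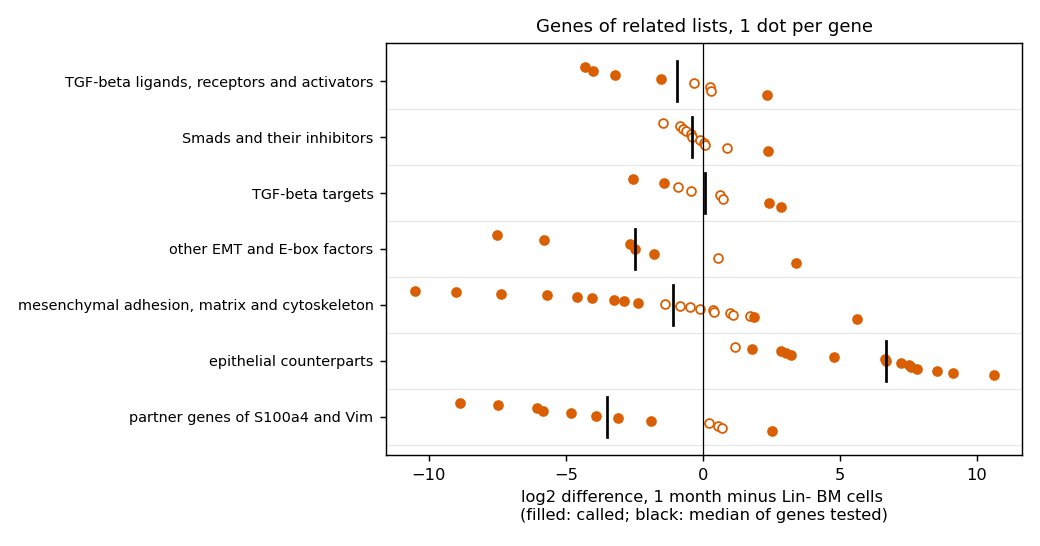
Log2 difference between 1-month hepatocytes and Lin- BM cells (x axis) for each gene tested in 7 related lists, 1 dot per gene, filled where called, with the list median as a black line. The epithelial counterparts have a median of 6.71, and the partners of S100a4 and Vim one of -3.51.

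Between 5-month and primary hepatocytes, on the other slide, no member was called. Of 8 members tested, 0 were called higher, where 0.366% of all genes tested were, and 0 lower, where 0.186% were. In limma 0 members had an unadjusted p under 0.05, and by the methods' t-test 1 had, Zeb2. The log2 differences lay between -0.06 and 0.55, and all 8 of their 95% intervals held 0, with bounds from -0.75 to 1.12. These bounds are not a limit of detection with 2 arrays per group. On the same arrays the receptor Tgfbr2 had a log2 difference of 1.61 (SE 0.21). It was not called (limma, adjusted p = 0.0908), while 110 of 19934 genes tested were.

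**Figure D4:**
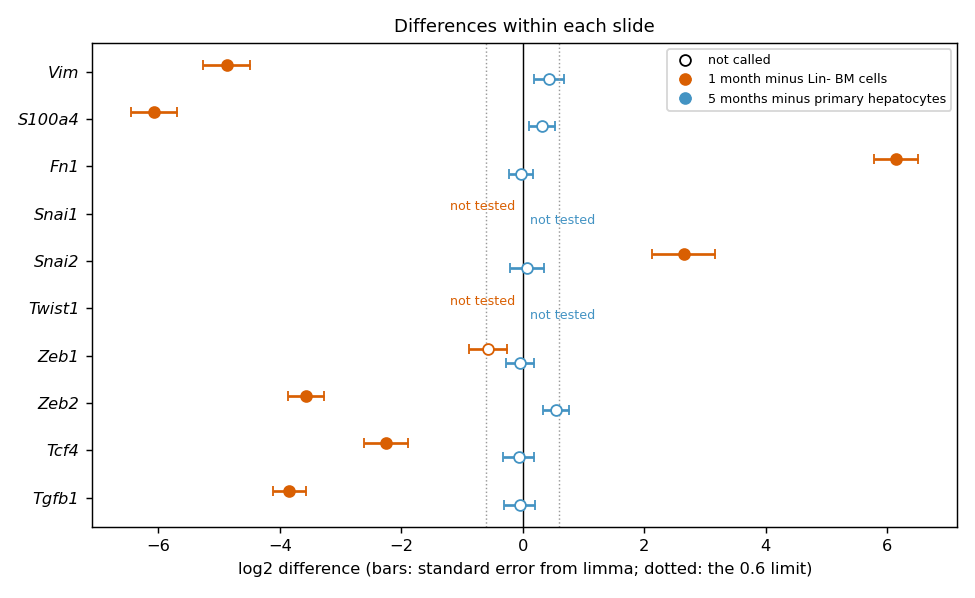
Log2 difference (x axis) of each member within its slide, with bars for the standard error from limma; filled points were called, open points were not, and dotted lines mark 0.6. At 1 month against Lin- BM cells the members spread from -6.07 to 6.15, and at 5 months against primary hepatocytes from -0.06 to 0.55.

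Fn1 was read there by a probe at chr1:71632116-71632175 of build mm9. Its log2 levels were 8.92 and 8.89 in primary hepatocytes and 8.89 and 8.86 at 5 months, a difference of -0.03 (SE 0.20, 95% interval -0.55 to 0.50). Snai2 had log2 levels of 2.92 and 2.32 in primary hepatocytes and 2.75 and 2.64 at 5 months, a difference of 0.07 (SE 0.28, 95% interval -0.68 to 0.83). Both genes that rose at 1 month were above the upper quartile in primary and 5-month hepatocytes.

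The 2 largest differences were those of Zeb2 and Vim. Zeb2 had log2 levels of -0.67 and -0.69 in primary hepatocytes and -0.25 and -0.00 at 5 months (difference 0.55, SE 0.21, adjusted p = 0.365, 95% interval -0.02 to 1.12). Vim had log2 levels of 0.16 and 0.56 against 0.89 and 0.68 (difference 0.43, SE 0.25, adjusted p = 0.521). In both genes, and in S100a4 by its brighter probe, the 5-month arrays were the higher pair. An exact permutation test of 2 arrays against 2 cannot go below p = 0.33, so this order alone sets no gene apart. The share of all genes with such an order was not counted. On the same arrays the pan-leukocyte markers summed to 10.4 and 15.9 in primary hepatocytes and 45.8 and 41.3 at 5 months, and the Kupffer cell markers to 23.0 and 48.4 against 99.0 and 94.4. All 8 pan-leukocyte and all 7 Kupffer cell markers had a difference above 0 and 0 were called. Over all genes tested, 46.6% had a difference below 0. In other lists, 4 of 8 sinusoidal endothelium and 3 of 5 haematopoietic progenitor markers tested were above 0. So were 6 of 8 stellate cell and fibroblast markers tested, with 2 below 0. Of the genes of mesenchymal adhesion, matrix and cytoskeleton, 13 of 17 tested were above 0 and 4 below. In these lists too 0 were called, and the upward direction was not confined to leukocyte and Kupffer cell markers. All 13 partner genes of S100a4 and Vim were above 0 as well. The part of any of these cells in the values of Vim and Zeb2 was not tested.

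S100a4 had log2 levels of -0.73 and -0.62 in primary and -0.25 and -0.47 in 5-month hepatocytes by the brighter of its 2 probes, a difference of 0.32 (SE 0.21, adjusted p = 0.571). The other S100a4 probe, also well above background on all 4 arrays, gave -0.79 and -1.83 in primary and -0.56 and -2.08 in 5-month hepatocytes. Its pairs overlapped, with a difference of -0.01 (SE 0.65) in a fit over every probe. Tcf4 gave 2.20 and 1.76 against 2.03 and 1.80, and Zeb1 0.88 and 0.56 against 0.63 and 0.72. Tgfb1, printed in 10 spots on this design, gave -2.44 and -2.06 against -2.16 and -2.44. For these last 3 genes the pairs overlapped and the differences were -0.06, -0.04 and -0.05. Snai1 and Twist1 were not well above background on any of the 4 arrays. Cdh1 and Cdh2 differed by 0.54 (adjusted p = 0.650) and 0.60 (adjusted p = 0.343) and were not called.

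All 4 groups could be set side by side for 7 members that had a probe of identical sequence on both slides. In mm9 these probes lay at chr2:13504232-13504291 for Vim, chr16:14709361-14709420 for Snai2, chr7:26489877-26489936 for Tgfb1, chr18:5774613-5774672 for Zeb1 and chr2:44842774-44842833 for the brighter Zeb2 probe. S100a4, Fn1 and Tcf4 had no such probe. Levels here are relative to the upper quartile of the 13991 shared probes.

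**Figure D5:**
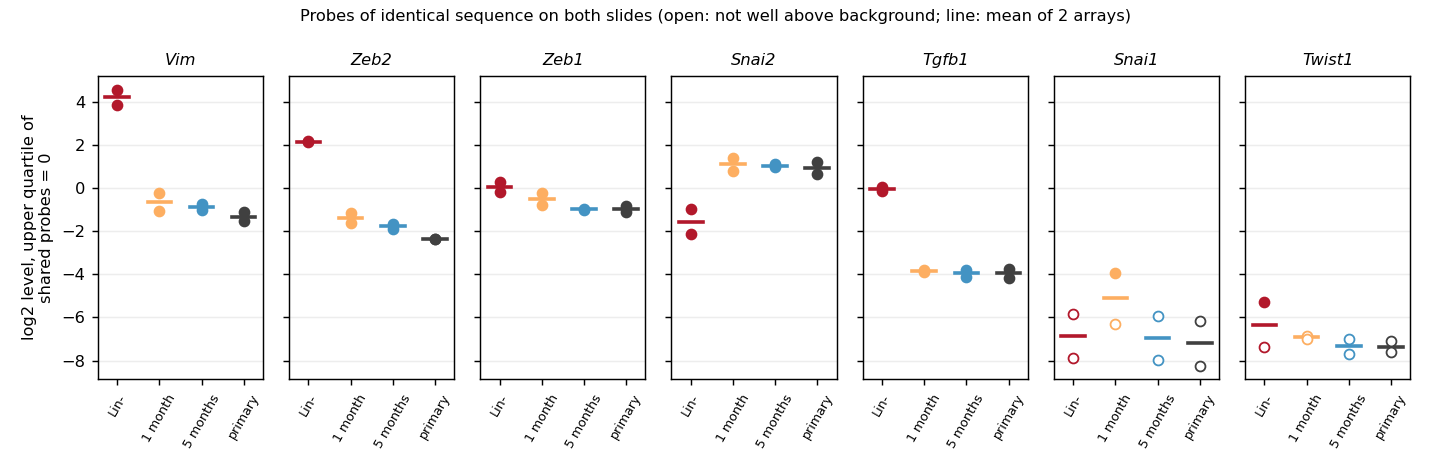
Log2 level relative to the upper quartile of shared probes (y axis) for 7 members on all 8 arrays, by group, with lines for means of 2 arrays and open circles where the probe was not well above background. Vim, Zeb2 and Tgfb1 are highest in Lin- BM cells and Snai2 is lowest there. Among the 3 hepatocyte groups no difference was called in limma for Vim, Snai2, Zeb1 and Tgfb1. Zeb2 was called higher at 1 month than in primary hepatocytes, by 0.98, and Snai1 and Twist1 were not tested.

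Against Lin- BM cells, 5-month and primary hepatocytes shared the control arrays and gave these values side by side. Of 5 members tested, 4 were called lower and 1 higher in each comparison, where 37.7% of all genes were called lower and 29.3% higher at 5 months, and 38% lower and 29.3% higher in primary hepatocytes. The median over all genes tested was -0.30 at 5 months and -0.29 in primary hepatocytes.

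For Vim the log2 levels were 4.57 and 3.84 in Lin- BM cells, -1.04 and -0.24 at 1 month, -0.73 and -0.99 at 5 months and -1.55 and -1.11 in primary hepatocytes. The order of the means was Lin- BM cells, 1 month, 5 months and primary hepatocytes, and no difference among the 3 hepatocyte groups was called in limma. The difference from Lin- BM cells was -5.07 at 5 months (SE 0.38, adjusted p = 5.83e-05) and -5.54 in primary hepatocytes (SE 0.38, adjusted p = 3.69e-05), or -5.72 and -6.19 with quantile normalization. Of 9262 genes compared, the 5 whose levels followed those of Vim most closely were Cnn2, Ctla2b, Rcsd1, Arhgap25 and Hcls1. Their root mean square difference of centred log2 levels was 0.22 to 0.26 over 8 arrays, where Vim itself ranged over 6.12. This measure takes in the step between Lin- BM cells and the hepatocyte groups, and shared regulation was not tested.

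For Snai2 the log2 levels were -2.15 and -0.99 in Lin- BM cells, 0.81 and 1.42 at 1 month, 1.12 and 0.98 at 5 months and 1.21 and 0.65 in primary hepatocytes. All 6 hepatocyte arrays were above both Lin- BM arrays. The difference from Lin- BM cells was 2.62 at 5 months (SE 0.44, adjusted p = 0.00203) and 2.50 in primary hepatocytes (SE 0.44, adjusted p = 0.00243).

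For Zeb2 the log2 levels were 2.14 and 2.17 in Lin- BM cells, -1.63 and -1.13 at 1 month, -1.88 and -1.67 at 5 months and -2.37 and -2.36 in primary hepatocytes. The difference from Lin- BM cells was -3.93 at 5 months (SE 0.25, adjusted p = 2.44e-05) and -4.52 in primary hepatocytes (SE 0.25, adjusted p = 1.28e-05), the latter -3.66 with the mean of the probes and -3.76 with normexp. A second, dimmer shared Zeb2 probe was well above background on both Lin- BM arrays and on none of the other 6.

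For Tgfb1 the log2 levels were -0.12 and 0.07 in Lin- BM cells and lay between -4.15 and -3.73 on all 6 hepatocyte arrays. The difference from Lin- BM cells was -3.93 at 5 months and -3.92 in primary hepatocytes, with an SE of 0.25 in both, and -2.25 in both with normexp. The 3 hepatocyte groups overlapped.

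For Zeb1 the log2 levels were 0.28 and -0.19 in Lin- BM cells, -0.77 and -0.24 at 1 month, -0.99 and -0.95 at 5 months and -0.83 and -1.11 in primary hepatocytes. The difference from Lin- BM cells was -1.01 both at 5 months (SE 0.29, adjusted p = 0.0184) and in primary hepatocytes (SE 0.29, adjusted p = 0.0183). The call at 5 months was lost without L3 (-0.78), G1 (-0.99) or G3 (-1.04), and that in primary hepatocytes without L3 (-0.78) or H4 (-0.87). Both were also lost with the methods' t-test (adjusted p = 0.0905 and 0.119).

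Between 1-month and primary hepatocytes, 1 of 5 members was called higher, where 11.6% of all genes were, and 0 lower, where 5.13% were. The member called was Zeb2, with a log2 difference of 0.98 (SE 0.25, adjusted p = 0.0410), beside a median of 0.17 over all genes. That call was lost without any of the 4 arrays compared, with log2 differences of 0.73 to 1.23, and under 7 of 9 other settings. Vim (0.69, 95% interval -0.23 to 1.60), Zeb1 (0.47), Snai2 (0.18) and Tgfb1 (0.10) were not called. Of the 1552 genes called, 69.4% were higher, and 49.4% of 1509 with the authors' values, scaled on all probes of a design.

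Between 5-month and 1-month hepatocytes, 0 of 5 members were called, where 5.85% of all genes were called higher and 11.3% lower. In limma and by the methods' t-test 0 members had an unadjusted p under 0.05. The log2 differences lay between -0.47 for Zeb1 and -0.06 for Snai2, beside a median of -0.14 over all genes, with 95% interval bounds from -1.16 to 0.99. Of the 1588 genes called, 34.1% were higher, and 53.2% of 1584 with the authors' values.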

How the data were processed

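RNA of 8 samples was hybridised to 1-colour arrays by the study. The deposited Feature Extraction files hold an intensity per spot, already background-subtracted by the software (version 11.5.1.1, build mm9). The deposited value tables hold log2 intensities that the authors shifted to the 75th percentile of each array, and these served as an alternative. No other comparison columns were used, and 0 columns of values were left unmapped.

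Here log2 of the processed signal was taken, spots marked as outliers (6 to 152 per array) were left out, spots of a probe were averaged, and the 75th percentile was subtracted: over all probes within a slide (61307 and 55681 probes) and over the 13991 probes of identical sequence across slides. A probe was kept if some group had it well above background on both of its arrays, and the brightest probe stood for its gene, leaving 28538, 19934 and 9263 genes. Where only 1 group met this, the filter fixed or favoured the direction of the difference. Group means were fitted in limma 3.58.1 (R 4.3.3), within each slide or over all 8 arrays across slides, and p-values were adjusted (Benjamini-Hochberg) across every gene in the fit. The limit of 0.6 is that of the study's methods, which name a t-test. An exact permutation test of 2 arrays against 2 cannot go below p = 0.33. Where a group was not well above background, a fold is a bound against the lowest signal well above background on its arrays. The fit was tested on simulated data. Figures were drawn with matplotlib.

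Gene names came from RefSeq accessions or symbols, otherwise from the files. The alternatives were normexp with an offset of 50, quantile normalization, another set of probes for the percentile, no filter, the mean of a gene's probes, a fit over every probe, fits over other arrays, the authors' values, the t-test of the methods and leaving out each array. Named genes were all members, at most 3 per related list (called at 1 month against Lin- BM cells, with the largest differences), Cdh1, Cdh2, Alb, Ptprc and the 5 nearest patterns of Vim and Fn1, where Fn1 had no shared probe. The members and lists were chosen with earlier results of these data known. The number of arrays limits the precision.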

Additional observations from a re-analysis of the deposited data

How the results depend on the processing

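From Lin- BM cells to 1 month, 5 members were called lower and 2 higher; with the t-test of the methods 1 was called higher before adjustment, and after it 3 were called lower and 1 higher. In the fit of all 8 arrays on shared probes, with or without slide as a block, 3 were called lower and 1 higher, since 5 members had such a probe; slide adds nothing there because each group lies on 1 slide. Leaving out 1 array gave 1 to 2 called higher. The 1 member called higher at 5 months against Lin- BM cells became 0 with the adjusted t-test, and that in primary hepatocytes became 0 with the t-test, adjusted or not. The 1 member called higher at 1 month against primary hepatocytes became 0 with quantile normalization, the 75th percentile over all probes, the mean of a gene's probes, the authors' processed values, the t-test with and without adjustment, the fit of the 2 groups only, and without any 1 of the 4 arrays compared (0 in each).

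Of the single log2 differences, those called in the report kept their direction under every alternative run, with 214 calls kept and 28 lost, and 1 call was gained, that of Zeb1 from Lin- BM cells to 1 month with normexp. Directions turned for differences that were not called. With the 75th percentile over shared probes, Fn1 at 5 months against primary hepatocytes was 0.015. At 1 month against primary hepatocytes, Snai2 was -0.088 with the 75th percentile over all probes, -0.034 with normexp and -0.10 with the authors' values, and Tgfb1 was -0.17 with the 75th percentile over all probes, -0.28 with quantile normalization and -0.16 with the authors' values. At 5 months against 1 month, Snai2 was 0.16, 0.10 and 0.17 and Tgfb1 was 0.11, 0.25 and 0.12 under the same settings, and Vim was 0.0051 with the 75th percentile over all probes and 0.0092 with the authors' values. Leaving out 1 array gave, at 5 months against primary hepatocytes, -0.22 to 0.37 for Snai2, -0.28 to 0.15 for Tcf4, -0.24 to 0.14 for Tgfb1 and -0.20 to 0.12 for Zeb1. It gave, at 1 month against primary hepatocytes, -0.13 to 0.49 for Snai2 and -0.11 to 0.31 for Tgfb1, and at 5 months against 1 month -0.37 to 0.24 for Snai2, -0.27 to 0.051 for Tgfb1 and -0.62 to 0.18 for Vim. The cause was not tested.

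Over all genes, scaling on all probes of a design moved the median at 1 month against primary hepatocytes from 0.17 to -0.09, and normexp moved that at 1 month against Lin- BM cells from 0.07 to 0.36, with 62.8% of calls higher in place of 52.2%. At 5 months against primary hepatocytes 110 genes were called, 0 to 1397 without 1 array, 38 without the filter, 1364 with the unadjusted t-test and 0 with the adjusted one. No paired analysis was possible because the groups compared share fewer than 2 replicate numbers. Dim probes, Snai1 and Twist1 above all, are limited by signal over background.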
